A study of Mus musculus with 42 samples.

Results

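Cdkn1a, Cdkn1b, Cdkn2a, Cdkn2b, Cdkn2c, Trp53, Mdm2 and Ccnd1 were followed in liver, quadriceps muscle and visceral fat of female C57BL/6 mice. The genes were chosen by name, as cell cycle inhibitors, p53 and its closest partners, and every non-control probe that the array assigns to them was taken, which gave 13 probes of 8 genes on an array of 41174 probes. The mice were Wt or carried a deletion of 1 allele of Akt1 (Akt1+/-) in every tissue, so that the mutant is a whole-body heterozygote that keeps an intact allele. In each tissue 14 arrays formed 4 groups: 3 Wt and 3 Akt1+/- arrays for mice aged 8 weeks, and 4 of either genotype for mice aged 35 weeks, the age on the sample labels (the study's methods name a somewhat later age). Nothing in the labels ties an array to a mouse, and the p-values measure the spread between these arrays.

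Progress from G1 into S phase is driven by cyclin-dependent kinases. Cyclin D1, the product of Ccnd1, activates Cdk4 and Cdk6, which phosphorylate the retinoblastoma protein and release E2F factors. The INK4 proteins of Cdkn2a (p16, which shares its locus with Arf), Cdkn2b (p15) and Cdkn2c (p18) hold back these kinases, and p21 (Cdkn1a) and p27 (Cdkn1b) bind cyclin and kinase complexes. The p53 protein of Trp53 induces Cdkn1a and also Mdm2, whose product marks p53 for degradation. Akt phosphorylates p21, p27, Mdm2 and the FoxO factors that induce Cdkn1b, and much of this control acts on proteins, which an RNA array does not measure.

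Levels are given as the log2 of the processed signal minus the 75th percentile of the array, so that 0 is the 75th percentile and 1 unit is a factor of 2. To enter the tests of a tissue, a probe had to be well above background on 3 or more arrays of any group, the brightest such probe stood for its gene, and differences were tested with limma, with Benjamini-Hochberg adjustment over all genes of the tissue and a threshold of 0.05. Of the 13 probes 11 passed in every tissue, and 7 of the 8 genes could be tested. The share of spots well above background was 56.5 to 68.6% over the 42 arrays, with 0 saturated spots. The summed marker levels matched the labels: hepatocyte markers summed to 1540 to 2083 in liver and at most 40.2 in muscle and 8.93 in fat, muscle fibre markers to at least 4490 in muscle, and adipocyte markers to at least 1639 in fat (as multiples of the 75th percentile signal). The 40.2 was on 1 muscle array, Akt1+/- replicate 3 at 8 weeks, against 0.375 to 3.99 on the other muscle arrays, and the differences that rest on young Akt1+/- muscle are also given without it where it moved them by over 1.5 times or changed a call. Akt1 lay lower in Akt1+/- mice by 0.67 in liver (adjusted p = 0.0024), 0.58 in muscle (0.072) and 0.55 in fat (0.0063), with all Akt1+/- arrays below all Wt arrays of the same age and tissue. Whether its probe lies within the deleted part is not given in the sources used here. In bulk tissue, fewer cells that express a gene and less RNA per cell cannot be told apart.

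The promoters of Cdkn1b, Mdm2 and Cdkn2b are shown as examples of inhibitors and p53 partners whose brightest probe was called for age in the liver, lower for Mdm2 and Cdkn1b and higher for Cdkn2b, though the dimmer Cdkn1b probe was called in the opposite direction. Cdkn2c, also called lower there, has entries for 2 start sites and is not shown. Each is the 250 bases before the start site in RefSeq (GRCm38.p6), 5′ to 3′ on the gene's strand, and 7 of the 8 genes matched an entry. Capitals mark GTAAACA (a FoxO core), GGGCGG (the GC box) and CCAAT on either strand.
Cdkn1b (chr6:134920151-134920400, + strand): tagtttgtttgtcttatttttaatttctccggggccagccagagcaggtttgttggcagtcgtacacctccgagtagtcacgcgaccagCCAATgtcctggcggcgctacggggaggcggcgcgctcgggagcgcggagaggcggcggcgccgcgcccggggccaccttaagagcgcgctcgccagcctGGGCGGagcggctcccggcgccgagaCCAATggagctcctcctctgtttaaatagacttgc
Mdm2 (chr10:117710759-117711008, - strand): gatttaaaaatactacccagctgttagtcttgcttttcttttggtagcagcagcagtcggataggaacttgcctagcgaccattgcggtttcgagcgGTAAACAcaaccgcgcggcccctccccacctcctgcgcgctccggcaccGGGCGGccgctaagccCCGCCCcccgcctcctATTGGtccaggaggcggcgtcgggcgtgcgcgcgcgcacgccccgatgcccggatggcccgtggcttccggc
Cdkn2b (chr4:89311033-89311282, - strand): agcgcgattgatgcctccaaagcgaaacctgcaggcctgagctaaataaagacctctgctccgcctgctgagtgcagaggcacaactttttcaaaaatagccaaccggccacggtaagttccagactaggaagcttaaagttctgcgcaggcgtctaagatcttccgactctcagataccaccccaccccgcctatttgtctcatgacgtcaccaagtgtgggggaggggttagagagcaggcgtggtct
Mdm2 alone of the members' 10 promoter entries held the FoxO letters, 153 bases before its start, against 3.17% of all 32851 promoter windows of this length. The GC box stood in 5 of the 10 entries (32.7% of all windows) and CCAAT in 3 (33.8%). The Cdkn2b window held none of these letters, nor TATAAA or CACGTG, which were also searched on both strands and stood in 12.4% and 6.02% of all windows.

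Ccnd1, the cyclin of early G1, was the only member that differed between the genotypes by this test, and it did so in the liver. Its probe (chr7:144739658-144739717 in mm8, the build of the array) was read from 10 spots per array, whose SD within an array had a median of 0.054. At 8 weeks the Wt livers had levels of 0.72, 0.06 and 0.02, and the Akt1+/- livers 2.10, 1.82 and 2.81. At 35 weeks the Wt livers had 1.04, 1.90, 2.47 and 2.17, and the Akt1+/- livers 2.57, 1.63, 2.96 and 2.03. All young Akt1+/- livers thus lay above all young Wt livers, the older groups overlapped, and the young Wt group was the lowest of the 4. The log2 difference was 1.97 ± 0.41 (SE) at 8 weeks, a 3.93-fold higher level (adjusted p = 0.033), and 0.40 ± 0.35 at 35 weeks (95% interval -0.36 to 1.17, adjusted p = 0.62). Over both ages it was 1.19 ± 0.27, or 2.28-fold (adjusted p = 0.029).

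The fall of this difference with age was not itself called (interaction -1.57, 95% interval -2.73 to -0.41, adjusted p = 0.21). Of all genes tested in liver, 5.62% were called for genotype over both ages, 1.76% at 8 weeks, 3.57% at 35 weeks and 0.492% for the interaction, beside 1, 1, 0 and 0 of the 7 members. The genotype call over both ages was lost with the slide as a random block (adjusted p = 0.070), by the methods' two-way test after adjustment (0.051) and with no filter on dim probes (0.062), and without any 1 of 5 of the 14 arrays, which are Wt replicates 2 and 3 and Akt1+/- replicate 3 at 8 weeks and Wt replicate 2 and Akt1+/- replicate 1 at 35 weeks, at adjusted p-values from 0.055 to 0.074 and differences from 1.05 to 1.19. At 8 weeks the call was lost with the replicate block (adjusted p = 0.060), with the slide block (0.072), by the methods' test (0.061) and with no filter (0.072), and without any 1 of Wt replicates 2 and 3 or Akt1+/- replicates 2 and 3 at 8 weeks or Wt replicate 2 at 35 weeks (1.69 to 2.19, adjusted p from 0.051 to 0.12). The study's own rule was a p below 0.01 in a two-way analysis, with no adjustment stated, and was not the rule used here. Before adjustment the limma p-values of Ccnd1 were 0.00073 over both ages and 0.00034 at 8 weeks. Liver arrays of different genotype never shared a slide, and no value within a slide can be given.

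Summed markers of macrophages and adipocytes had the same order as Ccnd1 in the young livers. The summed level of 7 macrophage markers, all of them well above background on every liver array, was 48.8 to 64.7 in Wt and 77.2 to 97.8 in Akt1+/- livers at 8 weeks, and 96.0 to 119 and 80.4 to 135 at 35 weeks. The 8 adipocyte markers, of which 3 were above background on every liver array, summed to 11.3 to 13.9 and 22.9 to 106 at 8 weeks and to 12.3 to 41.3 and 22.1 to 77.4 at 35 weeks. In both lists the young Wt livers lay below the young Akt1+/- livers, as they did for Ccnd1, and the genotypes overlapped at 35 weeks. Other cell types were also measured in liver and are not given here, and groups of 3 and 3 arrays can fail to overlap by chance. The part of these cells in the Ccnd1 result was not tested.

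**Figure D1:**
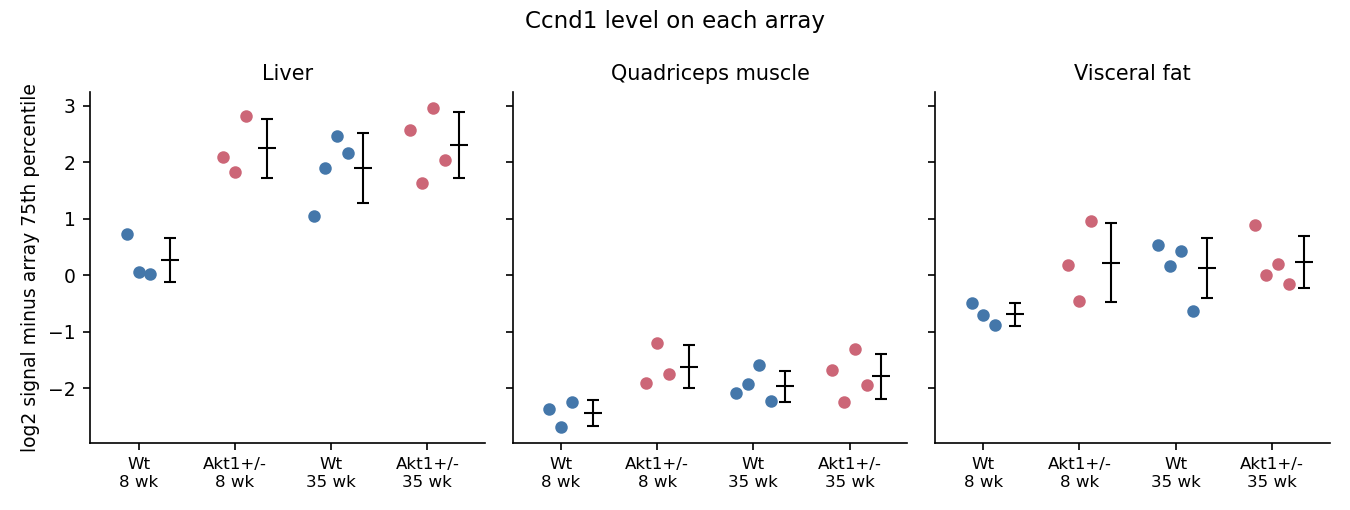
Ccnd1 level on each array (log2 signal minus the array's 75th percentile) by genotype and age in 3 tissues; points are arrays, the bar is the mean and SD of a group. At 8 weeks the Akt1+/- arrays lie above the Wt arrays in each tissue, and the lowest of them are at 1.82 in liver, -1.91 in muscle and -0.46 in fat.

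In muscle and fat Ccnd1 had the same order at 8 weeks without passing the test. Young Wt muscles had -2.37, -2.68 and -2.24, and Akt1+/- muscles -1.91, -1.19 and -1.75. Young Wt fat had -0.49, -0.71 and -0.89, and Akt1+/- fat 0.18, -0.46 and 0.95. In both tissues every Akt1+/- array lay above every Wt array, with differences of 0.81 (adjusted p = 0.19) and 0.92 (0.17). The gap in fat was narrow, with the lowest Akt1+/- array at -0.46 and the highest Wt array at -0.49. The share of all genes whose young groups did not overlap is not given here, for this or any other member. Such an order is therefore a description. Without the muscle array that stood apart in hepatocyte markers the muscle difference was 0.88 (0.50). The fat difference ranged from 0.56 to 1.26 without 1 array, called in 0 of 14 fits. On the slide that held both genotypes at 8 weeks the difference was 0.52 in muscle (3 Wt arrays and 1 Akt1+/- array) and 1.11 in fat (1 and 3). The macrophage markers of young muscle summed to 24.9 to 50.1 in Wt and 50.7 to 73.7 in Akt1+/- mice, and the mesothelial markers of young fat to 19.0 to 28.5 and 29.3 to 44.3. Neither list overlapped between the genotypes there, and its part in the Ccnd1 values was not tested. Lists of other cell types, such as lymphocytes and endothelial cells, were also measured and are not given here. Groups of 3 and 3 arrays can fail to overlap by chance, so these lists are not shown to be particular to Ccnd1. At 35 weeks Ccnd1 ranged from -2.23 to -1.60 in Wt and -2.24 to -1.30 in Akt1+/- muscle, and from -0.64 to 0.54 and -0.16 to 0.89 in fat, and the groups overlapped. Of all genes, 0.0% were called at 8 weeks in muscle and 1.71% in fat. The genotype difference of Ccnd1 in the liver was larger than in muscle by 0.70 (95% interval -0.01 to 1.41, adjusted p = 0.32) and than in fat by 0.67 (-0.04 to 1.39, adjusted p = 0.29), so that the test does not set the liver apart. These 2 contrasts called 1.02% and 3.93% of all genes, that of muscle against fat 0.593%, and none of the 7 members in any of the 3.

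None of the inhibitors, nor Trp53 or Mdm2, was called for genotype in any tissue. Beside 0 of the 7 members in each contrast, limma called 0.0% of all genes in muscle and 0.528% in fat over both ages. The shares were 0.0905% and 1.6% among the older mice and 0.0% and 1.66% for the interaction. Unadjusted p-values below 0.05 were reached over both ages by 2860 genes of muscle and 3201 of fat, and in muscle 64 genes were called under a random slide block and 38 under the replicate block. The slide correlation estimated for muscle was -0.06, and at a negative value this block does not make a test between slides stricter. Cdkn1a, the p21 inhibitor induced by p53, varied widely between liver arrays. Young Wt livers had 3.53, 3.41 and 3.77 and young Akt1+/- livers 1.17, 2.53 and 3.21, so that all of the latter lay lower, by 1.26 on average (95% interval of the difference -2.39 to -0.14, adjusted p = 0.19). Leaving out 1 array moved this difference to between -1.72 and -0.70, called in 0 of 14 fits. Older livers ranged from 1.28 to 3.04 in Wt and 1.78 to 2.88 in Akt1+/- mice. In young muscle Cdkn1a had 3.58, 3.53 and 3.34 in Wt and 3.62, 3.73 and 5.06 in Akt1+/- mice, where 1 array stood above the rest (difference 0.65, 95% interval -0.11 to 1.42, adjusted p = 0.38). That array is the one with hepatocyte markers at 40.2, whose part in the Cdkn1a value was not tested, and without it the difference was 0.19 (adjusted p = 0.90). Within the slide shared by both genotypes, with 3 Wt arrays and 1 Akt1+/- array, it was 0.14.

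Cdkn2b in fat had the lowest adjusted p for genotype over both ages among the brightest probes of the inhibitors. Young Wt fat had 0.56, 0.55 and 0.47 and older Wt fat 0.27, 0.11, -0.07 and 0.87. Young Akt1+/- fat had -0.08, 0.06 and 0.24 and older Akt1+/- fat -0.02, 0.07, -0.30 and 0.01. The young groups did not overlap and the older groups did. The difference over both ages was -0.40 (95% interval -0.69 to -0.12, adjusted p = 0.14). At 8 weeks it was -0.45 over all arrays and -0.40 within the slide that held both genotypes (1 Wt array and 3 Akt1+/- arrays). Older Wt and Akt1+/- fat arrays lay on different slides scanned on different days, and no value within a slide can be given for them. By their brightest probes, Cdkn1b, Cdkn2c, Trp53 and Mdm2 had genotype differences over both ages between -0.20 and 0.06 in the 3 tissues. The second probes of Cdkn1b, Trp53 and Cdkn2c lay farther out without being called, that of Cdkn2c at -0.22 in muscle (adjusted p = 0.46 over all probes), that of Cdkn1b at -0.36 in muscle (0.23) and 0.39 in fat (0.33), and that of Trp53 at 0.21 for liver (0.22), -0.24 for muscle (0.16) and 0.36 for fat (0.21). The second Cdkn1b probe ranged from 0.24 to 0.64 in fat without 1 array, called in 1 of 14 fits (lowest adjusted p = 0.013). The widest 95% interval of the brightest probes went from -0.55 to 0.14, for Cdkn2c in muscle.

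**Figure D2:**
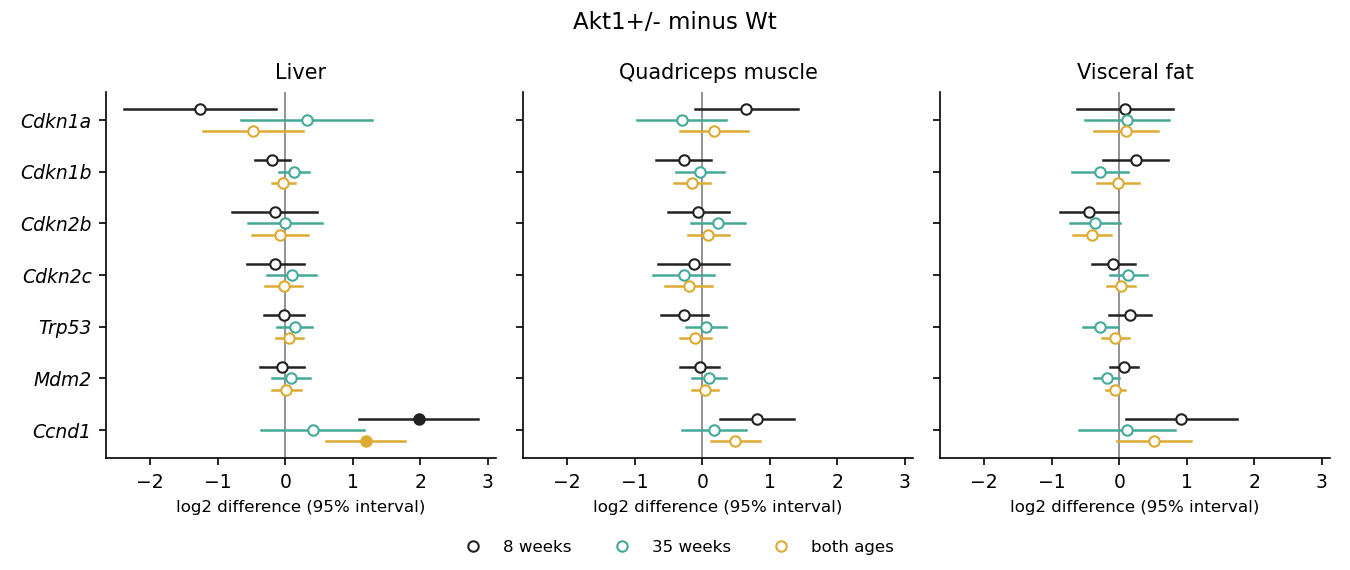
Genotype difference (Akt1+/- minus Wt, log2) of the 7 tested members at 8 weeks, at 35 weeks and over both ages, with 95% intervals; filled points passed an adjusted p of 0.05. Only Ccnd1 in liver has filled points, 1.97 at 8 weeks and 1.19 over both ages.

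More members were called for age than for genotype. In liver 5 of 7 members were called for age over both genotypes, 2 higher and 3 lower at 35 weeks, beside 35.0% of all genes (20.0% higher and 15.0% lower). In muscle 1 of 7 was called, Cdkn1b, which was lower, beside 31.2% of all genes (16.5% higher and 14.7% lower), and in fat 1 of 7, Cdkn2c, also lower, beside 19.5% (9.98% higher and 9.52% lower). Without the muscle array that stood apart in hepatocyte markers the muscle age differences were -0.66 for Cdkn1b, which stayed called (adjusted p = 0.0049), 0.36 for Cdkn2c (0.14), -0.19 for Mdm2 (0.16), 0.12 for Ccnd1 (0.67) and 0.01 for Trp53 by its brighter probe (0.95). In muscle and fat the members' share was at or below that of all genes. The 2 ages of a tissue were never scanned on the same day or on the same slide, so that age and scan cannot be told apart.

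Cdkn2b, the p15 inhibitor of Cdk4 and Cdk6, rose in the liver. Its probe lies at chr4:88777764-88777823 (mm8). Young Wt livers had -4.12, -4.28 and -4.55 and young Akt1+/- livers -4.08, -5.26 and -4.08, against -3.33, -3.45, -3.66 and -3.53 in Wt and -2.99, -3.70, -3.85 and -3.44 in Akt1+/- livers at 35 weeks. All 8 older livers lay above all 6 young livers, in both genotypes alike, though the gene was dim in liver. The age difference was 0.90 ± 0.19 (SE), or 1.87-fold (adjusted p = 0.0037), and it stayed called without each single liver array (0.70 to 0.998), but with normexp background correction and quantile normalization it was 0.07 and was not called (adjusted p = 0.088). In muscle the age difference was -0.14 (adjusted p = 0.46; -0.05 and 0.79 without the array that stood apart in hepatocyte markers) and in fat -0.18 (0.35). The fat difference ranged from -0.28 to -0.12 without 1 array, called in 1 of 14 fits (lowest adjusted p = 0.0497 over all probes). The age difference of the liver exceeded that of muscle by 1.04 (adjusted p = 0.0020) and that of fat by 1.08 (0.0014).

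Cdkn2c, the p18 inhibitor, was lower at 35 weeks in liver and fat. Young livers had 1.51, 1.59 and 1.16 (Wt) and 1.49, 0.84 and 1.48 (Akt1+/-), and older livers 0.998, 1.05, 0.56 and 0.94, and 1.15, 0.996, 1.03 and 0.78, a difference of -0.41 ± 0.13 (SE, adjusted p = 0.026; 0.055 with the replicate block, and -0.24 with 0.16 under normexp and quantile normalization). Young fat had 3.01, 2.83 and 2.97, and 2.83, 2.81 and 2.90, and older fat 2.48, 2.55, 2.68 and 2.30, and 2.96, 2.67, 2.60 and 2.32, a difference of -0.32 ± 0.10 (adjusted p = 0.035). In liver the ages overlapped through 1 low young array, and in fat through 1 high older array. The fat call was lost with normexp (-0.22, adjusted p = 0.15), no filter (0.061), the mean of both probes (0.051) and 1 fit over 42 arrays (0.084). It was also lost in 10 of the 14 fits without 1 array (adjusted p up to 0.071), and held only without Wt replicate 2 at 8 weeks or, at 35 weeks, Wt replicate 3 or Akt1+/- replicate 1 or 4. The liver call was lost in 4 of 14 (up to 0.068), those without young Wt replicates 1 or 2 or young Akt1+/- replicates 1 or 3.

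In muscle the same probe of Cdkn2c went the other way. Young muscles had 0.90, 0.96 and 0.62 (Wt) and 1.11, 0.42 and 0.57 (Akt1+/-), and older muscles 1.49, 1.28, 1.05 and 1.37, and 1.43, 1.22, 0.42 and 1.03. The difference of 0.40 ± 0.16 (SE) missed the threshold (adjusted p = 0.075) and passed it with the replicate block (0.029). A probe that overlaps it in position (chr4:109159084-109159145 against chr4:109159106-109159165, mm8) gave 0.52 (adjusted p = 0.021 over all probes; 0.051 without Wt replicate 3 and 0.054 without Akt1+/- replicate 2 at 8 weeks), -0.38 in liver (0.024; lost without the same 4 young arrays as the brighter probe, up to 0.064) and -0.25 in fat (0.074), and the pair had a correlation of 0.95 over the 42 arrays after subtraction of tissue means. The age difference of muscle exceeded that of liver by 0.81 (adjusted p = 0.0034) and that of fat by 0.72 (0.0090). These contrasts of age between tissues called 18.2% of all genes for liver against muscle, 15.8% for liver against fat and 16.3% for muscle against fat, and 2, 3 and 1 of the 7 members.

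**Figure D3:**
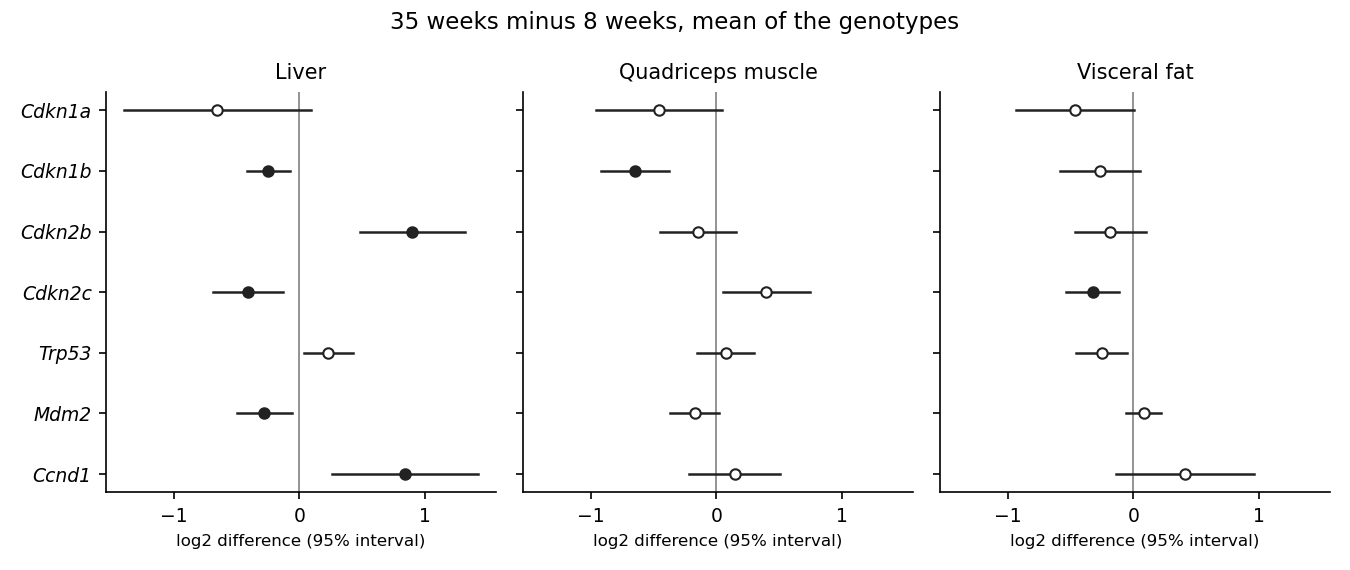
Age difference (35 weeks minus 8 weeks, mean of both genotypes, log2) of the 7 tested members with 95% intervals; filled points passed an adjusted p of 0.05. Cdkn2b is higher with age in liver alone (0.90), and Cdkn2c lies on the other side of 0 in muscle (0.40) than in liver (-0.41) and fat (-0.32).

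Ccnd1 was also called for age in the liver, at 0.84 ± 0.27 (SE, adjusted p = 0.029). The mean went from 0.27 to 1.89 in Wt livers and from 2.24 to 2.30 in Akt1+/- livers, and the contrast of these steps is the interaction that was not called. The age call was lost with scaling to the median (0.64, adjusted p = 0.068), under a random slide block (0.053), by the methods' two-way test (0.052) and without any 1 of 7 arrays (adjusted p from 0.050 to 0.066), which were Wt replicates 2 and 3 and Akt1+/- replicates 1 and 2 at 8 weeks and Wt replicates 3 and 4 and Akt1+/- replicate 3 at 35 weeks. The macrophage markers moved in the same way, from 48.8 to 64.7 in young to 96.0 to 119 in older Wt livers with overlap between the Akt1+/- groups, and their part in the age difference was not tested. In muscle and fat the age difference was 0.15 (adjusted p = 0.53) and 0.41 (0.27). Cdkn1a was lower at 35 weeks by 0.65 in liver (adjusted p = 0.16), 0.46 in muscle (0.15) and 0.46 in fat (0.15; 0.039 with the replicate block), with intervals of the difference from -1.39 to 0.09, -0.96 to 0.05 and -0.93 to 0.01. The liver difference ranged from -0.93 to -0.42 without 1 array, called in 1 of 14 fits (lowest adjusted p = 0.037 over all probes). Without the muscle array that held hepatocyte markers the muscle difference was -0.23 (adjusted p = 0.35).

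Cdkn1b, the p27 inhibitor, had its clearest age difference in muscle. With its brighter probe (chr6:134890890-134890949, mm8) young muscles had 2.01, 2.25 and 2.21 (Wt) and 2.11, 1.72 and 1.83 (Akt1+/-), and older muscles 1.51, 1.21, 1.41 and 1.43, and 1.76, 1.36, 0.86 and 1.45. The ages met at 1 older array, and the difference was -0.65 ± 0.12 (SE), or 1.57-fold (adjusted p = 0.0022), called without each single muscle array. In liver it was -0.25 ± 0.08 (adjusted p = 0.029), lost in 8 of the 14 fits without 1 array (adjusted p up to 0.072) and held without replicate 2 of either genotype at 8 weeks, Wt replicates 1 or 2 or Akt1+/- replicates 1 or 4 at 35 weeks. The liver call was also lost with normexp (-0.09, adjusted p = 0.28), no filter (0.053), a random slide block (0.056) and 1 fit over 42 arrays (0.11). In fat the difference was -0.26 (0.22). The dimmer probe (chr6:134886778-134886836, mm8, 10 spots) did not follow. It gave 0.09 in muscle (adjusted p = 0.67 over all probes), 0.40 in fat (0.21) and a call in the opposite direction in liver, 0.41 ± 0.11 (0.012). Its fat difference ranged from 0.24 to 0.65 without 1 array, called in 1 of 14 fits (lowest adjusted p = 0.0035). With the mean of both probes the liver difference turned to 0.08 and the muscle difference became -0.28 (adjusted p = 0.13). The brighter probe is assigned by the array to a cDNA clone and the dimmer to the RefSeq transcript of Cdkn1b, and their correlation over the 42 arrays, without tissue means, was 0.28. The age result for Cdkn1b thus rests on the choice of probe. The remaining probe (chr6:134889281-134889340, mm8) was above background on 15 arrays in all and was not tested.

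The dimmer Cdkn1b probe was uneven among young fat arrays. The Wt arrays had -3.04 and -3.30 on 1 slide and -1.68 on the other, which also held the Akt1+/- arrays at -1.66, -1.60 and -1.90. The genotype difference at 8 weeks was 0.95 over all arrays (adjusted p = 0.11) and -0.04 within the shared slide. Leaving out 1 array gave 0.64 to 1.45, called in 1 of 14 fits (lowest adjusted p = 0.00081 over all probes). Its interaction of genotype and age was then -1.62 to -0.81, also called in 1 fit (0.0021). The slides were scanned on different days, and the part of slide or scan in these values was not tested.

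Trp53 was another gene whose probes differed. The brighter probe (chr11:69396652-69396710, mm8, 1 spot), which stood for the gene, was not called for age in any tissue (0.23 in liver, 0.07 in muscle and -0.25 in fat, adjusted p from 0.064 to 0.62). Its fat difference ranged from -0.32 to -0.17 without 1 array, called in 1 of 14 fits (lowest adjusted p = 0.025 over all probes). The dimmer probe (chr11:69405827-69405886, mm8, 10 spots, median SD within an array 0.066) was called higher at 35 weeks over both genotypes in all 3 tissues. In muscle it had -2.08, -2.21 and -2.37 (Wt) and -2.24, -2.32 and -2.60 (Akt1+/-) at 8 weeks and -1.39, -1.28, -1.36 and -1.37, and -1.64, -1.51, -1.82 and -1.69, at 35 weeks, and no older array reached down to the young ones. The difference was 0.80 ± 0.08 (SE, adjusted p = 2.3e-05 over all probes; 0.74 and 5.5e-05 without the array that stood apart in hepatocyte markers), 0.52 ± 0.10 in liver (0.0019) and 0.53 ± 0.14 in fat (0.021). The muscle and liver calls of this probe held without each single array of the tissue, and the fat call was lost without replicate 2 of either genotype at 8 weeks (0.053 for Wt and 0.056 for Akt1+/-).

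In liver this probe ranged from -2.14 to -1.51 at 8 weeks and from -1.53 to -1.17 at 35 weeks, and in fat from -2.38 to -0.88 and from -1.36 to -0.73. The fat means went from -2.02 to -0.99 in Wt and from -1.16 to -1.12 in Akt1+/- mice, so that the Akt1+/- mean hardly moved (interaction -0.98, adjusted p = 0.10 over all probes). In young fat it differed by genotype by 0.85 over all arrays (adjusted p = 0.060) and by 0.45 within the shared slide. Leaving out 1 array gave 0.67 to 1.06 in young fat, called in 1 of 14 fits (lowest adjusted p = 0.013). The interaction in fat was then -1.19 to -0.80, called in 1 fit (0.023). The correlation of the Trp53 probes over the 42 arrays, without tissue means, was 0.20 (liver 0.54, muscle 0.25, fat -0.05). Both probes are assigned to the same RefSeq transcript. In liver they had the same direction with age, and the brighter one was called with normexp and quantile normalization (adjusted p = 0.047) and without Wt replicate 3 at 8 weeks (0.035) or Akt1+/- replicate 3 at 35 weeks (0.030). With scaling to the median it fell to 0.03 (0.76). The mean of both probes was called for liver (0.37, adjusted p = 0.0027) and for muscle (0.43, 0.0013). The directions of the probes were opposite in fat. By the brighter probe the age difference of liver exceeded that of fat by 0.48 (adjusted p = 0.014; 0.30 and 0.091 with scaling to the median), while by the dimmer probe the contrast was -0.01 (0.97 over all probes).

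**Figure D4:**
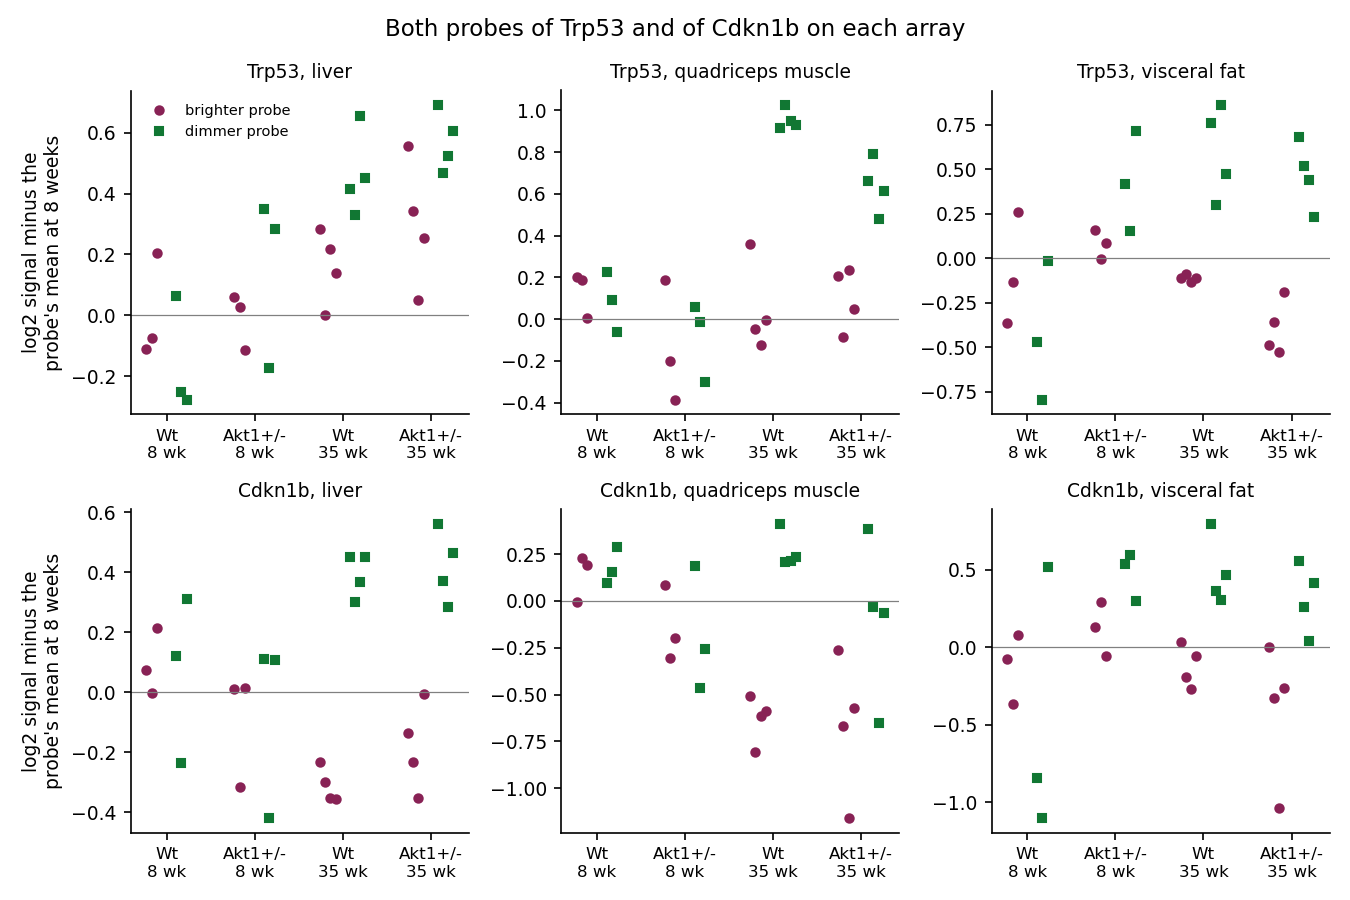
Both tested probes of Trp53 and of Cdkn1b on each array, each as log2 signal minus that probe's mean at 8 weeks in the tissue, by genotype and age; circles are the brighter and squares the dimmer probe. At 35 weeks the squares of Trp53 lie above 0 in all 3 tissues, while the circles lie above 0 in liver, on both sides in muscle and below 0 in fat.

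Mdm2, the ubiquitin ligase that p53 induces, was lower at 35 weeks in the liver by its brighter probe (chr10:117092215-117092274, mm8). Young livers had 1.13, 1.26 and 1.05 (Wt) and 1.01, 1.08 and 1.21 (Akt1+/-), and older livers 0.38, 0.79, 0.97 and 1.06, and 0.96, 0.92, 0.77 and 0.90. The difference was -0.28 ± 0.10 (SE, adjusted p = 0.048), and it was lost in 11 of the 14 fits without 1 array (adjusted p up to 0.11), all but those without Wt replicates 1, 3 or 4 at 35 weeks, and with the replicate block (0.085), normexp (-0.20, 0.070), no filter (0.073), a random slide block (0.086), the methods' two-way test (0.055) and adjustment over every probe (0.050). The dimmer probe (chr10:117095662-117095721, mm8, 10 spots) gave -0.21 (adjusted p = 0.052 over all probes). In muscle and fat the brighter probe gave -0.17 (0.16) and 0.08 (0.38), and the age difference of liver was lower than that of fat by 0.36 (adjusted p = 0.036).

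Cdkn2a, the p16 and Arf locus, was not measurable with this array. Its single probe (chr4:88745872-88745931, mm8, 10 spots) was not well above background on 41 of the 42 arrays, and it was so on 1 Wt fat array at 8 weeks, at -4.77 against -6.55 and -7.39 in its group. No difference was tested for it, and none can be read at this signal.

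Of the 7 members 6 were called for liver against muscle, 5 for liver against fat and 7 for muscle against fat, beside 85.5%, 85.5% and 87.5% of all genes, so that the members were called about as often as any gene. With scaling to the median the 3 counts were 6, 6 and 6. Ccnd1 had a mean of 1.74 ± 0.94 (SD, n = 14) in liver, 0.00 ± 0.58 in fat and -1.94 ± 0.41 in muscle, an order in which each step was called (1.71, adjusted p = 8.8e-11, and 1.92, 4.5e-12). Cdkn2b had the order fat, muscle, liver, at 0.20 ± 0.32, -1.33 ± 0.27 and -3.88 ± 0.58, and the arrays of the 3 tissues did not overlap. With normexp and quantile normalization its gap between liver and muscle went from -2.62 to -1.12 and that between liver and fat from -4.15 to -2.28, both still called. Cdkn2c was highest in fat (2.71 ± 0.23), above liver by 1.59 (8.9e-17), while liver and muscle (1.11 ± 0.31 and 0.99 ± 0.36) did not differ by the test (adjusted p = 0.078). Cdkn1b and Mdm2 were highest in muscle, at 1.65 ± 0.40 and 1.93 ± 0.17, in front of fat and then liver for Cdkn1b (0.49 ± 0.32 and 0.06 ± 0.19) and of liver and then fat for Mdm2 (0.96 ± 0.22 and 0.53 ± 0.12).

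Cdkn1a was likewise highest in muscle, at 3.55 ± 0.54 against 2.57 ± 0.83 in liver and 2.54 ± 0.45 in fat, and the last pair did not differ by the test (adjusted p = 0.85). Trp53, by its brighter probe, was lowest in muscle (0.26 ± 0.20 against 0.56 ± 0.19 and 0.54 ± 0.23), and liver and fat did not differ by the test with this probe (-0.01, adjusted p = 0.88). Its dimmer probe was lower in liver than in fat, by 0.28 (adjusted p = 0.0015 over all probes). With scaling to the median the brighter probe was higher in liver by 0.17 (adjusted p = 0.018), and its difference of muscle against fat went from -0.31 to -0.13 and was no longer called (0.064).

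**Figure D5:**
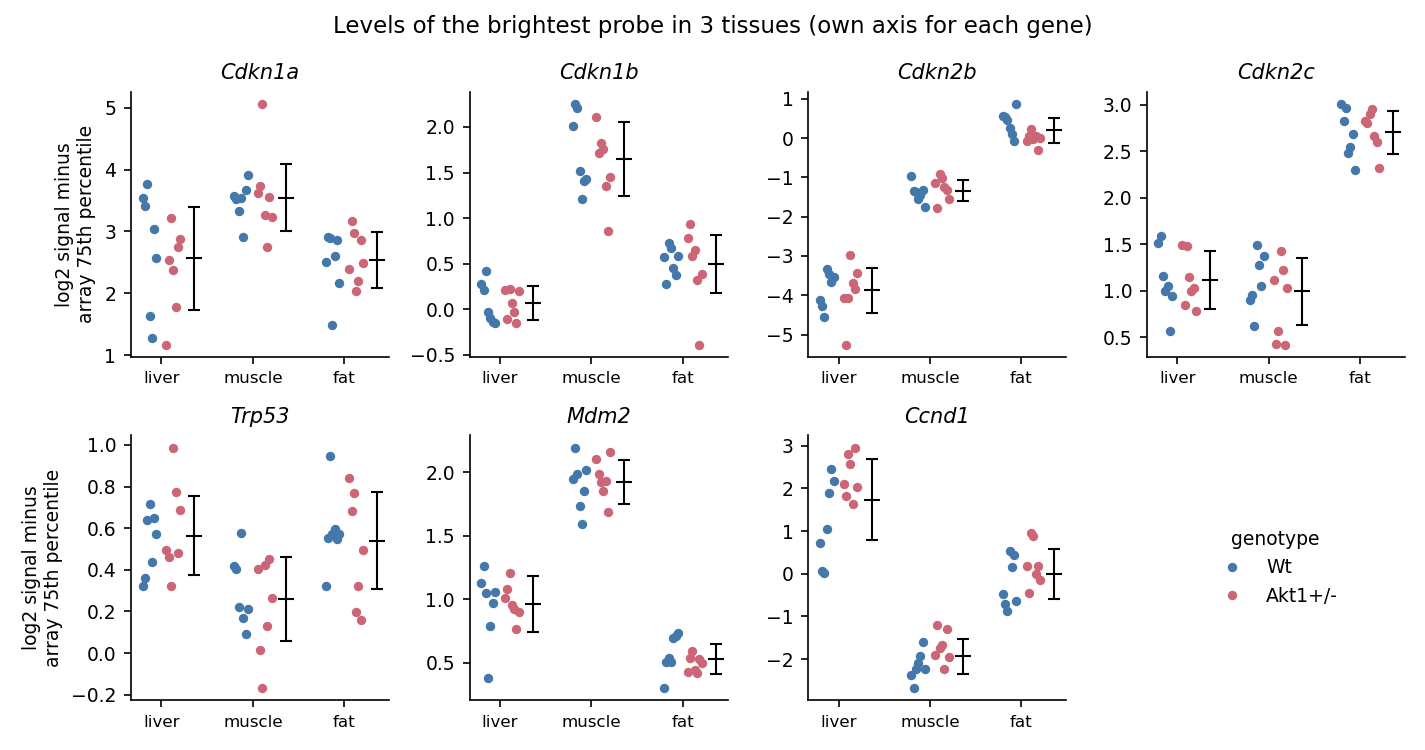
Level of the brightest probe of each tested member (log2 signal minus the array's 75th percentile) on the 14 arrays of each tissue, coloured by genotype, with the mean and SD; each gene has its own axis. Cdkn2b falls from fat (0.20) over muscle (-1.33) to liver (-3.88), and Ccnd1 from liver (1.74) over fat to muscle (-1.94).

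The genes whose level followed a member most closely over the 42 arrays, after subtraction of tissue means, were sought among 11879 others. For Ccnd1 they were Tubb6 (r = 0.82) and Unc45a (0.78), for Cdkn1a Dnajb11 (0.68) and Calr (0.66), for Cdkn1b, by its brighter probe, Cir1 (0.74) and Smad4 (0.74), and for Cdkn2b Olfml1 (0.75) and Gulp1 (0.71). Cdkn2c was followed by Cul5 (0.80) and an array entry with no gene symbol (0.78), Trp53, by its brighter probe, by an entry with no symbol (0.88) and E130304I02Rik (0.85), and Mdm2 by an entry with no symbol (0.71) and Ssb (0.71). The points share arrays, genotypes and ages, and these values are descriptions. Dnajb11 followed Cdkn1a in liver (0.86) and not in muscle (-0.20).

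The neighbours of these genes were read from lists chosen by function. Among genes of S phase and mitosis, 3 of 23 tested were higher in Akt1+/- liver and 0 lower, Top2a by 1.49 (adjusted p = 0.048) beside Mcm2 and Rrm1. Of all genes 5.62% were called, higher and lower together, and the list's median was 0.34 against 0.02 for all genes. The balance of higher and lower genotype calls over all liver genes turned with scaling to the median, as given in the last section. The summed macrophage and adipocyte markers given above were higher in young Akt1+/- than in young Wt livers, and their part in the list's values was not tested. Of 32 p53 targets 1 was lower in liver, Cd82, by 0.36 (adjusted p = 0.028). Among 18 genes of Akt and FoxO control 1 was lower in liver and 1 of 14 in fat, in each case Akt1. In liver limma called 0 of 4 other kinase inhibitors, 0 of 20 cyclins, kinases, RB and E2F genes and 0 of 15 secreted factors reported in senescence for genotype. It called 0 genes of the lists in muscle and, beside Akt1, 0 in fat, where 0.0% and 0.528% of all genes were called. Though none of them was called, the 14 secreted factors tested for fat had a median genotype difference of 0.79, against -0.008 for all genes. The 14 tested for muscle had a median of 0.45, against -0.002, and the 15 for liver had 0.16, against 0.02. The list medians themselves were not tested.

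The age calls of the lists stand beside those of all genes, of which 20.0% were higher and 15.0% lower for liver, 16.5% higher and 14.7% lower for muscle, and 9.98% higher and 9.52% lower for fat. With scaling to the median the balance over all genes turned to 1839 higher and 5613 lower in liver and 1900 and 2627 in muscle. Of the S phase and mitosis genes 11 of 25 were lower and 2 higher in fat (median -0.54 against 0.01 for all genes), 5 of 21 lower and 3 higher in muscle, and 5 of 23 lower and 2 higher in liver. The mitotic kinase Cdk1 was lower by 1.69 in muscle (adjusted p = 0.00031) and by 1.23 in liver (0.0095), and the cyclin Ccnb2 by 1.17 in fat (0.0058). Of other kinase inhibitors 3 of 5 were lower in muscle, 1 of 4 in liver and 1 of 5 in fat, and none was higher. Among them Cdkn2d, the p19 member of the INK4 family, was lower by 0.69 in liver (0.0016) and the phosphatase Cdkn3 by 0.78 in muscle (0.0022) and 0.94 in fat (0.021).

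The p53 targets had no common direction with age, with 2 higher and 7 lower of 32 in liver, 6 and 4 of 32 in muscle, and 3 and 4 of 37 in fat. Tnfrsf10b, a death receptor, was higher by 1.13 in liver (adjusted p = 0.022) and 1.01 in muscle (0.0035), and Sesn1 was lower by 1.06 in fat (0.0018). Of the regulators of p53, 2 were higher and 8 lower of 25 in liver, 3 and 5 of 27 in muscle, and 1 and 6 of 29 in fat, among them Trim24 (-0.44 in liver, 0.033), the deacetylase Sirt1 (0.50 in muscle, 0.00031) and Cbx8 (-0.90 in fat, 0.0038).

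Of the G1 genes 3 of 20 were lower and 0 higher in liver, 5 and 1 of 20 in muscle, and 3 and 2 of 18 in fat, with Rbl1 at -0.56 in liver (adjusted p = 0.0036), Ccnd3 at -0.60 in muscle (0.00016) and Skp2 at -0.50 in fat (0.042). The secreted factors had 0 higher and 2 lower of 15 in liver, 1 and 2 of 14 in muscle, and 1 and 1 of 14 in fat, with Igfbp4 at -0.91 in liver (0.00064) and Cxcl1 at -1.56 in muscle (0.0048). Akt and FoxO genes had 2 higher and 5 lower of 18 in liver, 1 and 3 of 18 in muscle, and 1 and 1 of 14 in fat, with Mycn at -1.55 in liver (0.016) and Rbl2 at -0.32 in fat (0.026).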

How the data were processed

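RNA of 42 tissue samples was measured on 1-colour Agilent arrays of the whole mouse genome. Agilent Feature Extraction (version 9.1 in the submitters' processing notes) gave the scanner output that the authors deposited, which holds the intensity of each spot, background-subtracted and not scaled between arrays, and their deposited series table holds log2 values, equal to the log2 of the processed intensity minus a constant per array. Unflagged spots of a probe were averaged, probes named through RefSeq accessions or array symbols (24375 and 6301 probes, 2426 by an older symbol, the others by the array's name), and probes whose spots were all marked as feature or background outliers on any array of the fit left out. Feature marks alone, and fits of each probe on its own without 1 array, were alternatives chosen after seeing the data. Limma 3.58.1 in R 4.3.3 fitted 4 group means per tissue (12 over all 42 arrays for tissue contrasts). Simulated data with 200 changed genes tested the fit. Every member probe, the gene of each list with the largest called difference, and the 2 most correlated genes were named, except for some that are not reported here. The members and lists were chosen with earlier results of these data known.

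Same-numbered arrays of the 2 genotypes deviated together at 35 weeks (correlations across genes of 0.16 to 0.53 in 12 pairs) and not at 8 weeks (-0.20 to 0.090 in 9 pairs). The number is also the position on the slide at 35 weeks, and no label pairs the mice, so that no block was used in the tests reported. Alternatives were normexp (offset 50) with quantile normalization, median scaling, the authors' values, other filters, other uses of probes, the methods' two-way test, replicate and slide blocks, 1 fit over 42 arrays and each array left out. The number of arrays limits the precision. Tables were made with Python 3.11.15.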

Additional observations from a re-analysis of the deposited data

Results flagged for a closer look

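Age differences that differed between tissues, by the test of that difference in the fit over 42 arrays (a comparison added after the data were seen), were those of Cdkn2b for liver minus muscle (1.04) and liver minus fat (1.08), of Cdkn2c for liver minus muscle (-0.81) and muscle minus fat (0.72), and of Mdm2 (-0.36) and Trp53 by its brighter probe (0.48) for liver minus fat. With normexp and quantile normalization those of Cdkn2b were not called, with scaling to the median that of Trp53 was not, and with no filter or the slide as a random block that of Mdm2 was not, nor without any 1 of 9 of the 42 arrays (adjusted p from 0.050 to 0.073). Those were, in liver, Wt replicate 2 and Akt1+/- replicate 3 at 8 weeks and Wt replicate 1 and Akt1+/- replicate 3 at 35 weeks, and, in fat, replicate 1 of either genotype at 8 weeks and Wt replicates 3 and 4 and Akt1+/- replicate 3 at 35 weeks.

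Of 66 groups of 4 arrays examined, 1 held an array far from its group, and chance alone gives about 1 in 20. The dimmer Cdkn1b probe on Wt muscle replicate 1 at 35 weeks had -0.16, with the other arrays of the group at -0.36, -0.36 and -0.34.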

How the results depend on the processing

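All counts here are at an adjusted p below 0.05, also for the methods' two-way test, which the study read without a stated adjustment. The members called for genotype in liver, 1 over both ages and 1 at 8 weeks, fell to 0 with no filter on dim probes, by the methods' two-way test with this adjustment and under a random slide block, and at 8 weeks also with the replicate block. Without 1 array they were 0 to 1 for both. The 5 called for age in liver became 2 with normexp and quantile normalization or a random slide block, 3 with no filter, the replicate block or the methods' test, and 2 to 5 without 1 array. The 1 called for age in muscle became 2 with the mean of all probes, the replicate block, a random slide block or 1 fit over 42 arrays (1 to 2 without 1 array). The 1 called in fat became 0 with normexp, no filter, the mean of all probes or 1 fit over 42 arrays, and 2 with the replicate block (0 to 1 without 1 array), and the 1 called for age in muscle minus fat became 2 with normexp (1 to 2 without 1 array). The interaction in fat called 0 to 1 without 1 array, the 1 being Trp53, by its brighter probe, without Wt replicate 3 at 8 weeks (-0.61, adjusted p = 0.041). The age difference of Cdkn1b in liver turned to 0.081 with the mean of its probes, since the dimmer probe went the other way, and the near-zero difference of Trp53 for liver minus fat to 0.17 with scaling to the median and to between -0.047 and 0.031 without 1 array. The cause of the other changes was not tested. The replicate block changed no other member call than those named here and in the report. Scaling to the median moved the liver age calls over all genes from 3211 higher and 2413 lower to 1839 and 5613, with a median difference of -0.18, those in muscle from 2559 and 2272 to 1900 and 2627, and the liver genotype calls from 569 and 333 to 428 and 2250, with a median of -0.11. The genotype calls over all genes in liver ranged down to 185 under a random slide block, and in fat to 1 under the replicate block. Of 96 member differences that were not called, 27 changed sign under an alternative. Cdkn2a lay at background, and Cdkn2b in liver was dim, though well above background on all 14 arrays.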
